A study of Mus musculus with 4 samples.

Results

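Sostdc1, Angptl2, Fgf16, Lamc1 and Ecm1 encode proteins that cells secrete, either as signals or signal antagonists or as parts of the extracellular matrix. They are 5 of the 282 genes in a deposited table of mouse regulatory T cells (Tregs), the Foxp3-expressing CD4 T cells that restrain immune responses. The 5 were taken by gene name, and both they and the table were selected on the contrast described here: 282 of 282 genes had an adjusted p under 0.05 and an absolute log2 fold change over 1 in the authors' deposited table, the thresholds named in the series' design text. The differences between the groups are therefore a description, and no test of them is given.

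All 4 libraries came from spleen and lymph nodes of male Foxp3RFP-Cre.RosaYFPMll1fl/fl mice aged 6 to 8 weeks, whose Foxp3 allele drives a red fluorescent protein (RFP) and Cre, and which carry a YFP reporter at Rosa and floxed Mll1. MLL1 is a histone methyltransferase. RFP-positive YFP-positive Tregs, in which Cre had acted on the reporter, carry the label MLL1KO, and RFP-positive YFP-negative Tregs carry the label WT although their mice have the same Cre and floxed alleles. Sorted populations of 300000 cells at over 95% purity were sequenced, 2 libraries per group, with mouse numbers 1 and 2 in both. Whether a mouse number stands for 1 animal or for a pool is not stated, so the spread below is that between libraries. The deletion of Mll1 and the level of Foxp3 were not analysed here, and the table held 1 of 9 Treg markers (Gpr83) and 0 of 7 markers of CD4 T cells in general, so it does not check the cell type.

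Secreted factors of this kind act outside the cell. BMP and Wnt antagonists such as SOSTDC1 bind ligands or their co-receptors and limit signalling, fibroblast growth factors bind receptor tyrosine kinases together with heparan sulphate, and angiopoietin-like proteins signal through integrins and immune receptors. Laminins are trimers of an alpha, a beta and a gamma chain that build basement membranes, and ECM1 is a secreted glycoprotein that binds matrix proteins and has a known role in the exit of type 2 helper T cells from lymph nodes. SOSTDC1 has been described as a product of follicular T cells.

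The promoters of Angptl2 and Ecm1 are shown because RefSeq's table (GRCm38.p6) gave a promoter for these 2 of the 5 members. Angptl2 was lower and Ecm1 higher in YFP-positive Tregs. The 250 bases before the start site lie at chr2:33215711-33215960 on the plus strand for Angptl2 and at chr3:95739570-95739819 on the minus strand for Ecm1. They are written 5′ to 3′, and capitals mark every match, on either strand, to the motifs searched.
Angptl2: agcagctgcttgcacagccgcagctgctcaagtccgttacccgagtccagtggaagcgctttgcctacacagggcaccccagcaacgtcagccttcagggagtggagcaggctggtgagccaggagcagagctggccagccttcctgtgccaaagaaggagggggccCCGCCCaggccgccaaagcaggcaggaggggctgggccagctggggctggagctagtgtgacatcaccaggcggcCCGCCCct
Ecm1: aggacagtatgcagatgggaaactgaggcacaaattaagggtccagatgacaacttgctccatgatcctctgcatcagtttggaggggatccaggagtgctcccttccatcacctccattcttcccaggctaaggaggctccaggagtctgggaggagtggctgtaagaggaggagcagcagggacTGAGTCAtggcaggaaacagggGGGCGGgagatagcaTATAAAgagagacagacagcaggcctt

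The Ecm1 window held a TATA box (TATAAA) from 27 to 22 bases before the start, a GC box (GGGCGG) from 42 to 37 bases before it, and a match to the AP-1 motif (TGANTCA) from 64 to 58 bases before it. The Angptl2 window held 2 GC boxes, 83 to 78 and 8 to 3 bases before the start, and no TATA box or AP-1 match. The start used for Angptl2 is RefSeq's (33215961), which lies upstream of the start of the gene given below (33216069). For Ecm1 the starts are the same. Among 32536 distinct windows of the same length, 12.3% held the TATA box, 33.0% the GC box and 6.73% the AP-1 motif. The CCAAT box (CCAAT, in 33.8% of windows), the RUNX motif (TGTGGT, 14.0%), the STAT motif (TTCNNNGAA, 7.04%) and the GATA motif (AGATAA, 9.97%) had no match in either window. The Angptl2 window was 66.8% G or C and the Ecm1 window 54.0%, beside a median of 52.4% over all windows. The observed-to-expected ratio of CpG was 0.323 for Angptl2 and 0.0575 for Ecm1, beside a median of 0.378. These matches describe letters in a window and show no binding.

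Of the 5 genes, 4 were lower in YFP-positive Tregs with no overlap between the groups, beside 69.5% of all 282 genes, and 1, Ecm1, was higher with no overlap, beside 30.5%. As the contrast chose the genes, nothing is read from these counts. In bulk samples, fewer cells of a type and less RNA per cell cannot be told apart. All values are read counts that the authors had scaled by a size factor per library (normalized counts), and reads stated below are whole numbers inferred from these values. In the authors' deposited table, the log2 fold change ran from -3.71 for Sostdc1 to 1.90 for Ecm1.

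**Figure D1:**
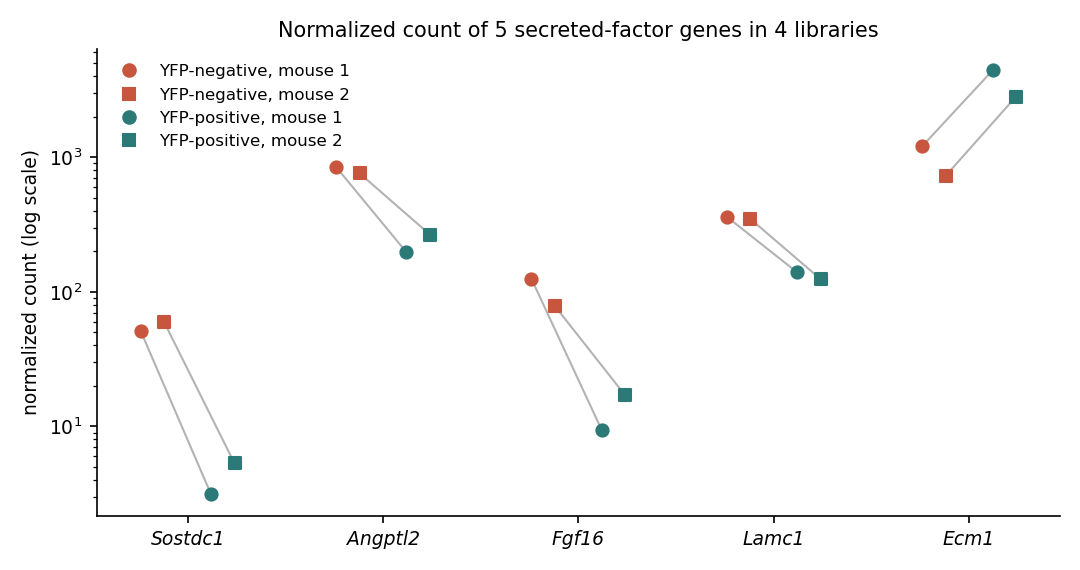
Normalized count on a log scale (vertical axis) of the 5 genes (horizontal axis) in each library, with red for YFP-negative and green for YFP-positive Tregs, circles for mouse 1 and squares for mouse 2, and grey lines joining libraries of the same mouse number. Sostdc1 is at 3.12 and 5.30 in YFP-positive Tregs, and Ecm1 is the gene whose green points lie above its red ones.

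Sostdc1, the BMP and Wnt antagonist (ENSMUSG00000036169, chromosome 12, 36314139 to 36318452, plus strand), was the least abundant of the 5 and had the largest difference. Its normalized counts were 3.12 and 5.30 in YFP-positive mice 1 and 2, and 51.0 and 59.4 in YFP-negative mice 1 and 2. Both YFP-negative libraries were thus far above both YFP-positive ones. The means were 4.21 ± 1.54 and 55.2 ± 5.95 (SD, n = 2 each), a 13.1-fold lower level in YFP-positive Tregs. The YFP-positive values stand for 3 and 5 reads and the YFP-negative values for 52 and 66. On summed reads the ratio was 13.2, with an exact 95% interval of 6.48 to 31.2 that covers counting error only. By limma, on log2(normalized count + 1), the difference was -3.46 ± 0.72 (SE), the 7th largest of the 196 lower genes. At so few reads the size and the rank depend on the pseudocount. With 8 in place of 1 the log2 difference was -2.37, nearly the same as the -2.36 of Fgf16. Penk, at -2.49 with either pseudocount, was behind Sostdc1 with 1 and ahead of it with 8. Of 23 BMP and Wnt antagonists, Sostdc1 was the 1 gene in the table. Of 33 genes of BMP and Wnt signalling, Id2, a target of BMP signalling and a transcription regulator, was the 1 gene listed, with 2281 and 2273 normalized counts in the YFP-positive libraries and 9768 and 6759 in the YFP-negative ones (log2 difference -1.83 ± 0.39).

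Fgf16, a growth factor of the FGF9 subfamily (ENSMUSG00000031230, chromosome X, 105764279 to 105774939, plus strand), was also low. It was counted at 9.36 and 17.0 in YFP-positive mice 1 and 2, from 9 and 16 reads, and at 125 and 78.3 in YFP-negative mice 1 and 2, from 127 and 87 reads. The groups did not overlap, but the mouse with the higher value differed between them: mouse 2 was 1.81 times mouse 1 in YFP-positive Tregs, and mouse 1 was 1.59 times mouse 2 in YFP-negative Tregs. Fgf16 was therefore 13.3-fold lower in YFP-positive Tregs within mouse 1 and 4.61-fold lower within mouse 2. The limma log2 difference over both was -2.87 ± 0.59 (SE), the 19th largest of the 196 lower genes. The within-mouse log2 differences of Fgf16 were 1.46 apart, beside a median gap of 0.55 over the 282 genes, and 15 of the 282 had a larger gap. Of 39 FGF ligands, receptors and feedback genes, Fgf16 was the 1 in the table, so no FGF receptor has a value here.

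Angptl2, an angiopoietin-like glycoprotein (ENSMUSG00000004105, chromosome 2, 33216069 to 33247717, plus strand), was counted at 197 and 266 in YFP-positive mice 1 and 2. It was counted at 845 and 759 in YFP-negative mice 1 and 2. The lowest YFP-negative library was well above the highest YFP-positive one. The means were 231 ± 49.2 and 802 ± 60.6 (SD, n = 2 each), a 3.47-fold lower level in YFP-positive Tregs, and the log2 difference was -1.80 ± 0.35 (SE). That placed Angptl2 109th by size among the 196 lower genes, close to their median of -1.90. Within mouse 1 it was 4.30-fold lower and within mouse 2 it was 2.85-fold lower. Of a list of 15 angiopoietin, angiopoietin-like and receptor genes, the other in the table was Lilrb4a, an inhibitory receptor of the immunoglobulin-like family. Lilrb4a was lower too, at 220 and 278 against 612 and 650 (log2 difference -1.35 ± 0.35). Its place on the list does not show that it binds ANGPTL2.

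Lamc1, the gamma 1 chain shared by many laminins (ENSMUSG00000026478, chromosome 1, 153218922 to 153332786, minus strand), had the smallest difference of the 5 and the closest libraries. Its normalized counts were 139 and 124 in YFP-positive mice 1 and 2, and 361 and 348 in YFP-negative mice 1 and 2. The libraries of a group lay within a CV of 8.21% (YFP-positive) and 2.50% (YFP-negative). Lamc1 was 2.69-fold lower in YFP-positive Tregs, with a log2 difference of -1.42 ± 0.38 (SE), the 150th of the 196 lower genes. Within mice 1 and 2 it was 2.59-fold and 2.81-fold lower. Of 22 laminin and basement membrane genes, 2 were in the table and both were lower, beside 69.5% of all listed genes. The other was Nid2, a nidogen that links laminin to collagen IV networks, at 5.20 and 11.7 against 37.3 and 96.3 (log2 difference -2.78 ± 0.68). No alpha or beta laminin chain was in the table, so the partners of the gamma chain have no value here. Itgb5, an integrin beta subunit that pairs with the alpha V subunit, was the 1 of 34 matrix receptor genes listed, at 5.20 and 13.8 against 94.1 and 48.6 (log2 difference -2.84 ± 0.66).

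Ecm1 (ENSMUSG00000028108, chromosome 3, 95734147 to 95739569, minus strand) went the other way and was by far the most abundant. It was counted at 4411 and 2819 in YFP-positive mice 1 and 2, and at 1207 and 727 in YFP-negative mice 1 and 2. Mouse 1 was above mouse 2 in both groups, 1.56 times among YFP-positive and 1.66 times among YFP-negative cells. The group means, 3615 ± 1126 and 967 ± 339 (SD, n = 2 each), therefore had wide SDs, whereas Ecm1 was 3.66-fold and 3.88-fold higher in YFP-positive Tregs within mice 1 and 2. The within-mouse log2 differences were 0.08 apart, and 28 of the 282 genes had a smaller gap. The limma log2 difference was 1.91 ± 0.36 (SE), the 40th largest of the 86 higher genes. Of 50 matrix glycoprotein genes, 3 were in the table, Ecm1 included. Of these, 2 were higher and 1 lower, beside 30.5% and 69.5% of all 282 genes. Igfbp4, which binds insulin-like growth factors, was also higher, at 5011 and 3165 against 1776 and 893 (log2 difference 1.66 ± 0.37). It shared the higher value in mouse 1 in both groups. The lower gene was Wisp1, also named Ccn4, a matricellular protein of the CCN family, at 75.9 and 45.6 against 391 and 146, a 4.42-fold lower mean.

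**Figure D2:**
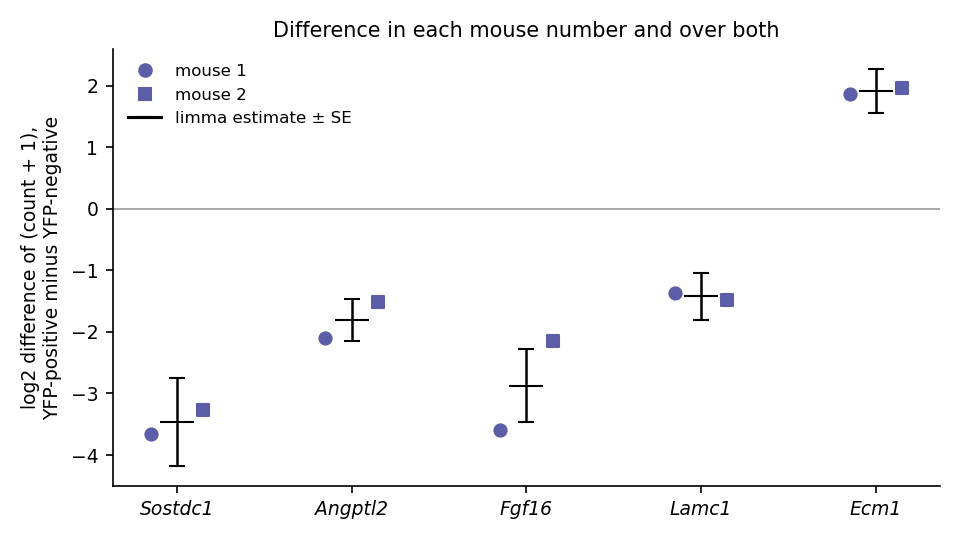
Log2 difference of (normalized count + 1), YFP-positive minus YFP-negative (vertical axis), for the 5 genes (horizontal axis); circles and squares are mouse numbers 1 and 2, and black bars are the limma estimate ± SE over both. The mouse values lie 1.46 apart for Fgf16 and 0.08 apart for Ecm1.

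Levels were compared between genes per kilobase of the gene length in the table. In YFP-negative Tregs, the normalized count per kilobase was 384 ± 135 for Ecm1, 128 ± 9.63 for Angptl2, 61.6 ± 19.9 for Fgf16, 42.9 ± 1.07 for Lamc1 and 31.0 ± 3.34 for Sostdc1 (SD, n = 2 each). The gap between the means of Fgf16 and Lamc1 was smaller than the SD of Fgf16, although their libraries did not overlap (75.7 and 47.6 against 43.6 and 42.1). In YFP-positive Tregs, the level per kilobase was 1434 ± 447 for Ecm1, 36.8 ± 7.83 for Angptl2, 15.9 ± 1.31 for Lamc1, 8.00 ± 3.27 for Fgf16 and 2.36 ± 0.87 for Sostdc1, and no neighbours in either order had overlapping libraries. By their means, Lamc1 and Fgf16 thus exchanged places between the groups. Without division by length, Lamc1 stood above Fgf16 in YFP-negative Tregs too. Ecm1 made up 59.3% of the 5 genes' summed level per kilobase in YFP-negative cells and 95.8% in YFP-positive cells. Among the 282 genes it ranked 64th per kilobase in YFP-negative and 17th in YFP-positive Tregs, and Sostdc1 ranked 208th and 264th.

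**Figure D3:**
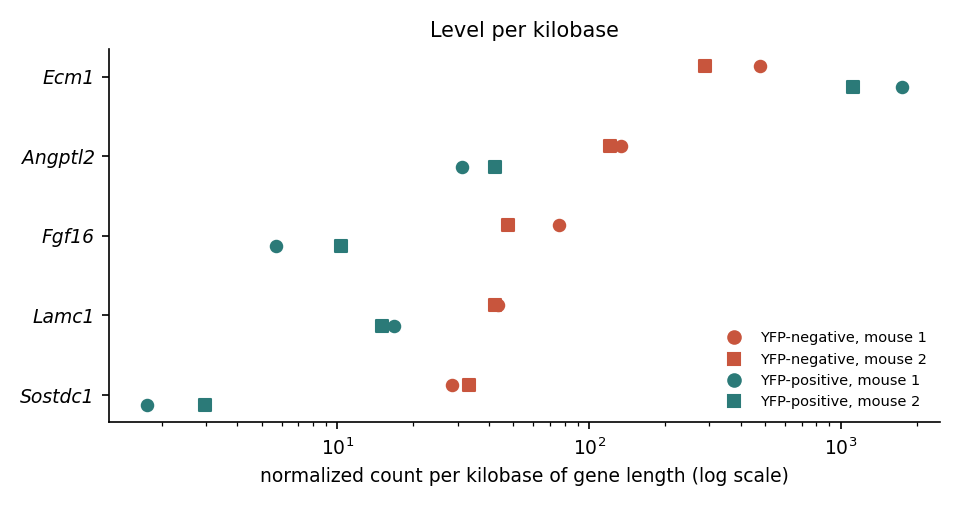
Normalized count per kilobase of gene length on a log scale (horizontal axis) for the 5 genes (vertical axis, ordered by the YFP-negative mean); each point is a library, red for YFP-negative and green for YFP-positive, circles for mouse 1 and squares for mouse 2. The points of Ecm1 lie to the right of all others, and those of Fgf16 and Lamc1 change order between the colours.

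**Figure D4:**
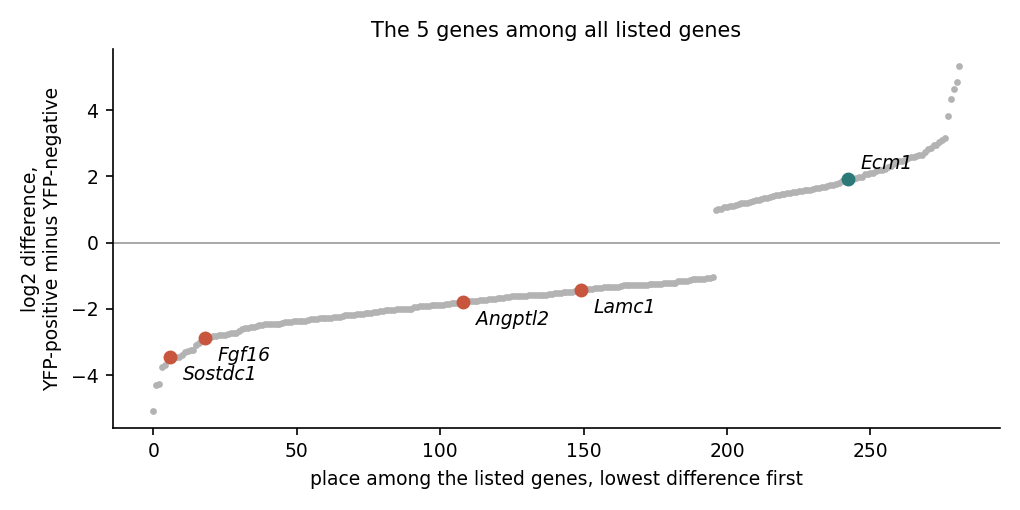
Log2 difference, YFP-positive minus YFP-negative (vertical axis), of the 282 listed genes in order of size (horizontal axis), with the 5 genes coloured and named, red where lower and green where higher. Sostdc1 and Fgf16 lie near the lower end, and Lamc1 lies among the smaller negative differences that the table lists.

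The genes with the most similar course over the 4 libraries were found by the root mean square distance between log2(normalized count + 1) values centred on each gene's mean. Nearest to Sostdc1 were Ltb4r1 (distance 0.12), a leukotriene B4 receptor, Slc24a3 (0.22), a cation exchanger, and Lrrn4 (0.23). Nearest to Fgf16 were Itgb5 (0.19), Tmem51 (0.23) and Lgals3 (0.25), which encodes galectin-3. Near Angptl2 were S100a11 (0.07) and Pvrig (0.08), an inhibitory receptor. Nearest to Lamc1 were Fam234a (0.08) and C2cd2 (0.10). Nearest to Ecm1 were Arhgap20 (0.13), Igfbp4 (0.16) and Gpr83 (0.25), a receptor of Tregs. With a pseudocount of 8, Fam234a, C2cd2, Arhgap20 and Igfbp4 remained among the 3 nearest to their member, and the other genes named here did not. The group difference that selected the genes is part of this distance.

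Of 43 matrix proteases and inhibitors, 6 were in the table, of which 5 were lower, beside 69.5% of all 282 genes, and 1 was higher. Their median log2 difference was -2.16, beside -1.51 over all 282 genes and -1.90 over the lower genes. Mmp9, a gelatinase to which ECM1 protein can bind, was counted at 82.2 and 72.1 in the YFP-positive libraries and at 440 and 436 in the YFP-negative ones. Mmp25 had 1.04 and 9.54 against 52.9 and 64.8, and Adam8 had 95.7 and 172 against 758 and 521. Mmp14, a membrane-bound collagenase, and Timp2, a protease inhibitor, had log2 differences of -2.03 ± 0.51 and -1.25 ± 0.35. The higher gene was Mmp11, at 269 and 227 against 88.2 and 90.0. Of 46 other secreted growth factor and peptide genes, 2 were listed and both were lower, again beside 69.5% of all genes: Penk, the proenkephalin gene (log2 difference -2.49 ± 0.42), and Csf1, the macrophage growth factor gene (-1.27 ± 0.37). None of 27 collagen and 17 proteoglycan genes was in the table, and genes outside it were not analysed here.

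Sostdc1 and Angptl2 belong to a list, drawn up here, of genes linked to follicular T cells, of which 8 of 17 were in the table. Some genes on it are not particular to follicular Tregs. All 8, the 2 members included, were lower, beside 69.5% of all 282 genes. Their median log2 difference was -1.58, beside -1.51 over all genes and -1.90 over the lower genes. The list was chosen with results known, so it cannot show a follicular trait of the members. The others were Il1r2, an interleukin-1 decoy receptor gene, Maf, Pdcd1, Tox2, Icos and Batf. Tox2, a nuclear factor of follicular T cells, had normalized counts of 283 and 274 against 1006 and 628. Cxcr5 and Bcl6, which define follicular T cells, have no value here. Ecm1 is on a list of 15 lymph node egress and type 2 helper genes, of which 4 were listed. Of these, 2 were higher and 2 lower, beside 30.5% and 69.5% of all 282 genes. Ecm1 was among the higher genes. Il1rl1 and Gata3 were lower, with log2 differences of -2.24 ± 0.37 and -1.09 ± 0.35.

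Matrix genes are often products of stroma, so markers of other cells were looked up among the listed genes. A marker at like levels in both groups could not be listed, so an absent marker says nothing about those cells. None of 11 markers of fibroblastic stroma, 8 of monocytes and macrophages and 8 of dendritic cells was in the table. Of 8 endothelial markers, Prox1 was lower (3.12 and 0 against 49.0 and 30.6) and Pecam1, which T cells also express, was higher (1443 and 1340 against 552 and 658). Igkc, the 1 of 8 B cell markers listed, was at 249 and 280 in the YFP-positive libraries and at 1503 and 1072 in the YFP-negative ones. That is the direction of the 4 lower members and of 69.5% of all 282 genes. Gzma, the 1 of 8 markers of CD8 T and natural killer cells, was at 7.28 and 37.1 against 109 and 253. Of 10 platelet and erythroid markers, Gata1 was higher and Car2 lower. The part of such cells in the members' values was not tested.

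The members lie on 5 chromosomes, and 4 of them had no other listed gene close by. The nearest were Ahr, 0.779 megabases from Sostdc1, Pbx3, 0.924 from Angptl2, and Cxcr3, 4.03 from Fgf16. Lamc1 was the exception. Gm8818, a processed pseudogene (153305432 to 153306478, plus strand), lies inside Lamc1 on the opposite strand and outside its exons, and was itself listed, at 110 and 61.5 against 389 and 265. All 1047 bases of the Gm8818 transcript matched 4930453N24Rik, so the source of its reads is uncertain. Angptl2 lies within Ralgps1 on the opposite strand, and shares no exon base with it. The microRNA gene Mir7014 covers 63 bases, 2.50%, of the Ecm1 exons. None of the 5 members' longest annotated transcripts had a match of at least 100 bases at 95% identity to a transcript of another gene. Exon bases outside these transcripts were not searched. In Angptl2 the transcript had 3559 bases, beside 6286 exon bases in all, and in Ecm1 and Lamc1 it also left some out. The longest coding transcripts had 2 exons in Sostdc1, 3 in Fgf16, 5 in Angptl2, 11 in Ecm1 and 28 in Lamc1.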

How the data were processed

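RNA libraries were made from sorted Tregs with a NEBNext Ultra kit, per the labels' protocols. The mm10 build and the tools DESeq2 1.16.1, featureCounts 1.5.0-p3, StringTie 1.3.3b and HISAT2 2.0.5 are named, per the submitters' processing notes, whereas the series' design text names DEGSeq 1.16.1. How strand and multiply mapped reads were handled, and which annotation was used, is not given in the sources used here. As deposited, the signal values are gene read counts divided by a size factor. The table's log2 fold changes and its p-values, raw and adjusted, are the authors' own.

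Reads were inferred from the step of each library's values, of which 100% were whole within 0.001 reads. Size factors were 0.943 to 1.11, and the listed genes held 196337 to 329350 reads per library, which is not the libraries' depth. Each library had 12 to 39 values between 1 and 20 reads. No count model was used, because the deposited values are normalized counts and cover selected genes only. Differences and SEs came from limma 3.58.1 (R 4.3.3) on log2(value + 1), with a variance trend, fitted on all 282 genes and tested on simulated data. The simulation was scored on genes with a mean normalized count of at least 50, so it does not cover Sostdc1. It used the same spread setting for every gene, with no shared mouse effect and no selection of genes. The variance was estimated on selected genes. Deviations of the mouse 1 libraries from the group means correlated across genes (Pearson's r = 0.395, Spearman's rho = 0.411). Libraries with the same mouse number were paired for the within-mouse values and the replicate block, which assumes a shared source. The main limma fit had no such pairing, so the SEs given with it are unpaired.

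The named genes were the members, the 3 nearest in course to each (numbered models and receptor segments left out), the nearest listed gene on the chromosome, and listed genes of fixed lists. Older symbols in the lists were matched through RefSeq's synonyms. The members and lists were chosen with earlier results of these data known. Coordinates are those of the table and equal GENCODE M21 (GRCm38) for all 5 members. Some genes that this rule names are not reported here.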

Additional observations from a re-analysis of the deposited data

How the results depend on the processing

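No alternative reversed a member's direction, which the selection of the table had fixed in advance. With a pseudocount of 8, the log2 difference of Sostdc1 was -2.37. The other 4 members moved by less than limma's moderated SD, although Fgf16 went from -2.87 to -2.36. That SD borrows from other genes and can be wider than a member's own spread between libraries, as for Lamc1. Within mouse 1 and mouse 2 alone, the log2 difference of Fgf16 was -3.60 and -2.14. Leaving out 1 library in turn gave 1.55 to 2.28 for Ecm1, lowest without YFP-negative mouse 2 and highest without YFP-negative mouse 1. Mouse 1 was above mouse 2 in both groups for Ecm1. Its log2 difference within mice 1 and 2 was 1.87 and 1.95. The other members moved by less than their moderated SD. With the mouse number as a replicate block the estimates were the same by construction (-3.46 for Sostdc1), with an SE of 0.58 in place of 0.72 for Sostdc1 and of 0.25 in place of 0.38 for Lamc1. Without the variance trend the SE of Sostdc1 was 0.40. Unscaled reads and a pseudocount of 0.1 moved no member beyond its moderated SD. A mean of at least 50 reads left 4 members, without Sostdc1. Low read numbers limit Sostdc1, with 3 and 5 reads in YFP-positive Tregs, and Fgf16, with 9 and 16.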

Other observations

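Beyond the lists, and chosen after their values were seen, 4 of the further genes of secreted-factor and matrix biology in the table are given here. Wls, which carries Wnt proteins to the cell surface for secretion, was lower in YFP-positive Tregs, at 990 and 1383 in mice 1 and 2 against 2856 and 2563 (limma log2 difference -1.21 ± 0.35, SE). Igf2r, a receptor that clears insulin-like growth factor 2 and sorts lysosomal enzymes, was higher, at 2261 and 2725 against 681 and 918 (log2 difference 1.65 ± 0.34). Ntn4, a netrin related to laminin chains, was higher, at 51.0 and 57.3 against 2.94 and 0.90, from 3 and 1 reads in YFP-negative mice 1 and 2. Podnl1, a small leucine-rich repeat matrix protein, was lower, at 197 and 351 against 614 and 725 (log2 difference -1.34 ± 0.35). The groups did not overlap for these genes, as for 282 of 282 in the table.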
